A study of Mus musculus with 21 samples.

Results

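Respiratory chain and ATP synthase genes were followed in microglia, the resident macrophages of the brain, which were sorted from male striatum at 8 to 10 weeks of age and measured by bulk RNA sequencing. The members were protein-coding genes whose symbols begin with Nduf, Sdha to Sdhd, Uqcr, Cox4i to Cox8a, Cyc1, Cycs or Atp5, together with the protein genes of the mitochondrial genome, each with a summed count of at least 100. They numbered 105 of the 55487 genes in the table, 92 encoded in the nucleus and 13 in mitochondrial DNA (mtDNA), after 6 of 111 matching identifiers fell under the minimum. The sort kept viable CD11b+, CD45-low, P2RY12+ cells. The animals were born to dams that underwent maternal immune activation (MIA) or to control dams, and as adults received either lipopolysaccharide (LPS), the endotoxin of Gram-negative bacteria, or saline into the peritoneum. LPS was given at 4500 endotoxin units for each gram of weight, and cells were taken 18 hours after either injection. The strain and the agent given to the dams are not stated in the labels. The groups, all male striatal microglia, were control LPS (5 libraries), control saline (6), MIA LPS (4) and MIA saline (6), of which 1 MIA saline library titled excluded was left out.

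Microglial RNA here had total counts of 9.85 to 18.1 M (M, units of 1e+06) in control LPS libraries, 11.9 to 19.0 M in control saline libraries, 13.0 to 17.1 M in MIA LPS libraries and 10.2 to 15.7 M in MIA saline libraries. MIA LPS replicate 4 was the only library of the batch labelled 2, so a batch term set it aside and each comparison rested on the other libraries of batch 1, 3 of them MIA LPS. Of the counts in batch 1 libraries, 43.0 to 53.8% belonged to a single gene, CT010467.1, which was grouped with ribosomal RNA. Mitochondrial ribosomal RNA held a further 2.14 to 5.91%. Values per library below are batch 1 values in counts per 1e+06 counts (CPM), scaled by the TMM method. CPM values are thus taken over counts that include ribosomal RNA. Since litters are not labelled, the tests below reflect the spread among these libraries, some of which may come from littermates. The ID labels hold a second number of unstated meaning, which several libraries share and which never spans control and MIA offspring. The MIA libraries compared carry fewer such numbers than the control libraries. The main tests take libraries that share a number as independent. The summed level of 9 microglial markers was 5930 to 8576 CPM in control LPS libraries and 11309 to 15397 CPM in control saline libraries. It was 5045 to 9119 CPM in MIA LPS libraries and 12240 to 14579 CPM in MIA saline libraries. All 9 microglial markers were detected in every group.

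Oxidative phosphorylation passes electrons from NADH (complex I) and succinate (complex II) through complex III and cytochrome c to oxygen at complex IV, and the proton gradient so built drives ATP synthase. Complexes I, III, IV and ATP synthase join nuclear-encoded subunits, made in the cytosol, with core subunits made from mtDNA inside the organelle, while complex II is wholly nuclear-encoded. Macrophages are known for shifting between oxidative metabolism and glycolysis upon LPS, and microglia rely on both.

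Adult LPS went with higher RNA of most nuclear-encoded subunits in both maternal groups. In control offspring 58 of the 92 nuclear members rose (63.0%) and 3 fell, with a median log2 fold change of 0.56. Over the 14741 genes tested, 44.6% were called in either direction in this comparison, 23.3% as higher and 21.3% as lower, with a median of -0.0032. In MIA offspring 50 nuclear members rose (54.3%) and 5 fell, with a median of 0.53, where 39.1% of all genes were called, 20.8% as higher and 18.3% as lower, with a median of 0.02. The 2 comparisons use no library in common, and 48 nuclear members rose in both, which is 96.0% of those that rose in MIA offspring and 82.8% of those that rose in control offspring. No member was called in opposite directions. Across the 92 nuclear members the fold changes of the 2 comparisons had a Spearman correlation of 0.882, a description across genes that share libraries. A call is an edgeR quasi-likelihood adjusted p under 0.05 over all genes tested, and all 105 members passed the expression filter, Cox6a2 and mt-Nd4l only through LPS libraries. Without Cox6a2, 49 of 91 nuclear members rose in MIA and 57 of 91 in control offspring.

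**Figure D1:**
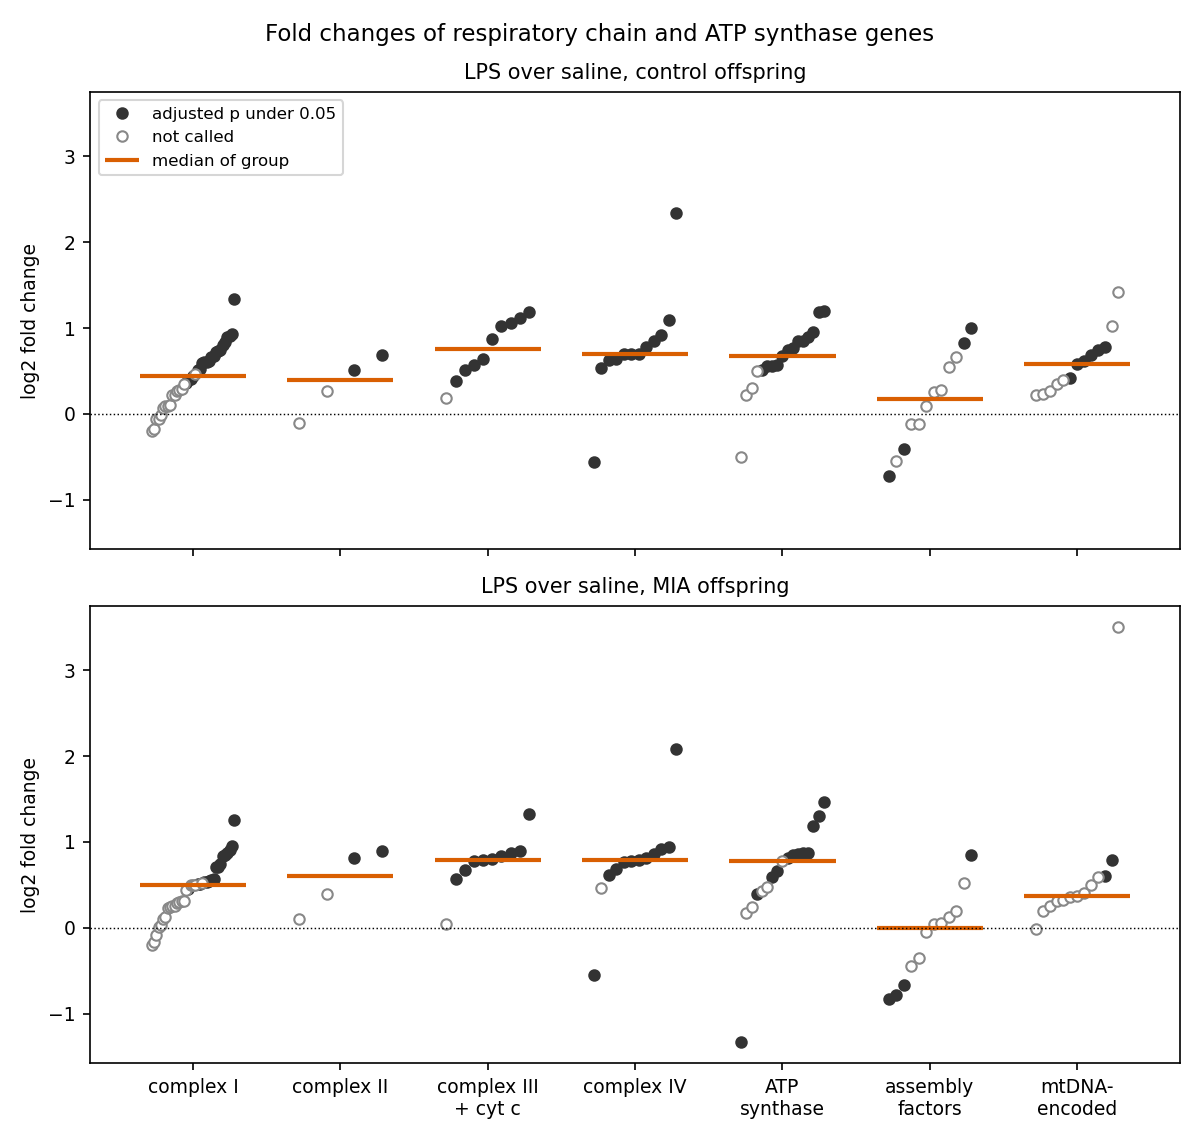
Log2 fold change of LPS over saline for each member, grouped by complex (nuclear members) with the 13 mtDNA-encoded members at the right, in control offspring (upper panel) and MIA offspring (lower panel). Filled points were called by edgeR, open points were not, and the bar is the group median, which runs from 0.18 for assembly factors to 0.76 for complex III with cytochrome c in control offspring.

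Summed over the 92 nuclear members, the level was 2823 ± 373 CPM in control LPS libraries (SD, n = 5) and 1943 ± 281 CPM in control saline libraries (SD, n = 6), a ratio of 1.45. It was 2973 ± 300 CPM in MIA LPS libraries (SD, n = 3) and 2012 ± 236 CPM in MIA saline libraries (SD, n = 5), a ratio of 1.48. In MIA offspring every LPS library lay above every saline library, whereas in control offspring control LPS replicate 2, at 2292 CPM, lay below control saline replicate 5, at 2407 CPM. For single nuclear members, all LPS libraries lay above all saline libraries for 25 of 92 in control offspring, where 15.1% of all genes did so. In MIA offspring 50 of 92 did so, where 18.5% of all genes did. Both counts include Cox6a2, which passed the filter only through LPS libraries.

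**Figure D2:**
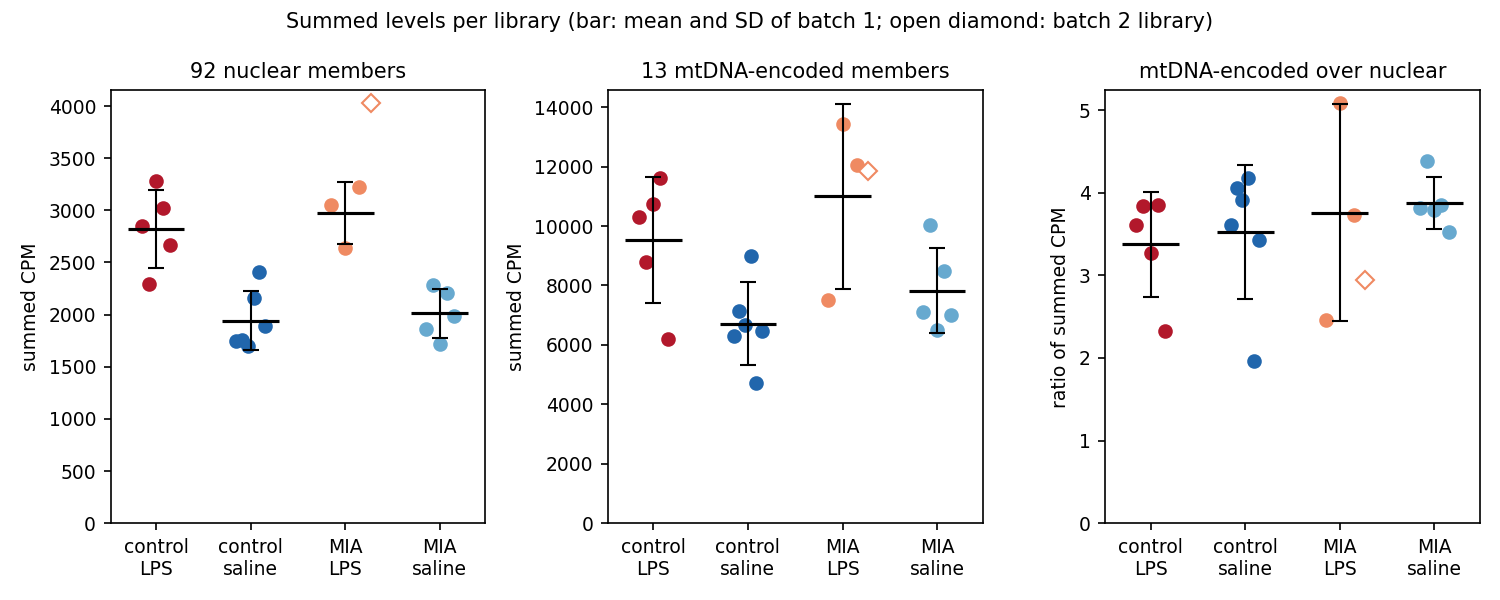
Summed CPM per library of the 92 nuclear members (left), of the 13 mtDNA-encoded members (middle) and the ratio of the second sum to the first (right), with points for batch 1 libraries, bars for mean and SD, and an open diamond for the batch 2 library. Both sums are higher after LPS, by ratios of 1.45 and 1.42 in control offspring, while the ratio between them spans 2.32 to 3.85 in control LPS libraries and 1.96 to 4.17 in control saline libraries.

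LPS libraries also held more RNA of monocyte and neutrophil markers, and in bulk samples fewer cells of a type and less RNA per cell cannot be told apart. The summed level of 7 monocyte markers was 48.3 to 107 CPM in control LPS libraries and 9.14 to 19.2 CPM in control saline libraries, and 38.3 to 85.8 CPM in MIA LPS libraries and 3.51 to 9.66 CPM in MIA saline libraries. For 8 neutrophil markers it was 43.7 to 105 CPM in control LPS libraries and 0.00 to 17.8 CPM in control saline libraries, and 31.2 to 97.9 CPM in MIA LPS libraries and 0.00 to 0.321 CPM in MIA saline libraries. In MIA saline libraries the monocyte markers Ly6c2 and Chil3 and 6 of the neutrophil markers were at 0, and in control saline libraries Retnlg, Mpo and Elane were. Single monocyte markers did not all move together, as 6 of 7 were called higher and 1 lower in each maternal group. Of the 9 microglial markers 5 were called lower in each maternal group, and 1 was called higher in control and 0 in MIA offspring. Some other marker sums were lower after LPS. That of 8 endothelial and mural markers was 9.85 to 17.7 CPM in control LPS libraries and 22.95 to 34.7 CPM in control saline libraries, and 11.95 to 17.3 CPM in MIA LPS libraries and 20.4 to 27.96 CPM in MIA saline libraries, with no overlap. For 7 astrocyte markers the sum was 108 to 149 CPM in control LPS libraries and 173 to 267 CPM in control saline libraries, with no overlap, and 130.1 to 226 CPM in MIA LPS libraries and 168 to 257 CPM in MIA saline libraries, with overlap. Single astrocyte markers did not move together. Of 6 tested, 1 was called higher and 1 lower in each maternal group, with median log2 fold changes of 0.30 in MIA and -0.09 in control offspring. The sum of 8 neuron markers had higher medians after LPS, with overlap. They were 6.97 CPM against 5.57 CPM in control offspring and 8.91 CPM against 6.33 CPM in MIA offspring. The part of these marker shifts in the respiratory gene results was not tested.

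Promoter sequence was available for 77 of the 92 nuclear members, as RefSeq windows of 300 bases around the gene's start on GRCm38.p6. Motifs were searched on both strands. A gene counted if any of its windows matched. The NRF1 motif was in 21 of the members (27.3%), against 5.2% of all 27025 genes with a RefSeq promoter and 11.7% of the 9840 such genes tested. The YY1 motif AAGATGGCG was in 8 (10.4%, against 1.6% and 3.7%), the GABPA motif CCGGAAGT in 5 (6.5%, against 4.3% and 9.4%) and the ESRRA motif TCAAGGTCA in 2 (2.6%, against 0.5% and 0.3%). No motif of these 4 is contained in another, and a match describes the letters only. Members with the NRF1 motif rose in 13 of 21 cases in control offspring with a median log2 fold change of 0.57, and those without it in 35 of 56 cases with a median of 0.55. Shown are the promoters of Atp5g3, the ATP synthase subunit with the highest fold change, of Ndufaf4, the assembly factor with the highest, and of Cox7a2l, the complex IV name that fell. Capitals mark motif matches. In Atp5g3 they lie at -52 (ESRRA) and 12 (NRF1) from the start, in Ndufaf4 at -113 (NRF1), and Cox7a2l holds none of the motifs searched.
Atp5g3, chr2:73911277-73911576, minus strand: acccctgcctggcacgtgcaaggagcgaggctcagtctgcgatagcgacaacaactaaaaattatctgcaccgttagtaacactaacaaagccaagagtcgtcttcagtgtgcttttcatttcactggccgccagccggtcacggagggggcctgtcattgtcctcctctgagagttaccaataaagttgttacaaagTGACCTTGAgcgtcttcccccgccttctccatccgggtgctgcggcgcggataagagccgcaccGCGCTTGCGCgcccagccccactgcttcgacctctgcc
Ndufaf4, chr4:24897833-24898132, plus strand: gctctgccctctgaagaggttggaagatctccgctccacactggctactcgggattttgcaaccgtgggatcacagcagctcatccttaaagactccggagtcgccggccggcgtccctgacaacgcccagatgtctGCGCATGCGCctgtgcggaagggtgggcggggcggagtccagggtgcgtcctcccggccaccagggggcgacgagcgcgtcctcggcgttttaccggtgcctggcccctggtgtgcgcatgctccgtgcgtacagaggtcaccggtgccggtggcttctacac
Cox7a2l, chr17:83514284-83514583, minus strand: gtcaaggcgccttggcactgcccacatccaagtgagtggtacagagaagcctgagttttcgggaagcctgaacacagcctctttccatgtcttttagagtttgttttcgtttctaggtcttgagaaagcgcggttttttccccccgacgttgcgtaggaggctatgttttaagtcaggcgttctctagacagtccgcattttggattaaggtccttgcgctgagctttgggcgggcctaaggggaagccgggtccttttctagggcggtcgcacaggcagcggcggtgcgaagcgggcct

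Complex I, which oxidises NADH, had 37 nuclear names among the members, of which 17 rose and none fell in MIA offspring (median log2 fold change 0.50) and 21 rose and none fell in control offspring (median 0.44). These counts and medians include Ndufa4, since assigned to complex IV, which rose in both maternal groups. The conserved core subunits that hold the flavin and iron-sulfur centres rose in 5 of 7 cases in each maternal group. Of the 29 accessory subunits 11 rose in MIA offspring and 15 in control offspring. Ndufa12, an accessory subunit near the NADH-oxidising arm, had 16.0, 17.4, 22.9, 22.5 and 18.1 CPM in control LPS libraries, against 5.65 to 10.6 CPM (median 7.22) in control saline libraries, with a log2 fold change of 1.34 ± 0.18 (SE, edgeR adjusted p = 9.1e-07). In MIA offspring it had 17.7, 21.3 and 19.9 CPM in MIA LPS libraries, against 6.92, 6.27, 7.76, 11.2 and 8.73 CPM in MIA saline libraries, with a log2 fold change of 1.26 ± 0.21 (SE, edgeR adjusted p = 3.1e-05). The LPS and saline groups of Ndufa12 did not overlap in either maternal group.

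Other complex I subunits were not called. Ndufa6, an accessory subunit that carries the acyl carrier protein, had 19.4, 12.3, 18.0, 14.8 and 19.2 CPM in control LPS libraries, against 13.7 to 24.7 CPM (median 18.7) in control saline libraries, and its log2 fold changes were -0.17 in MIA and -0.20 in control offspring, neither of them called. The ranges overlapped. Ndufa5, an accessory subunit of the ubiquinone-reducing arm, rose by 0.91 in MIA and 0.93 in control offspring on the log2 scale. Ndufa9, which lies in the same arm, had log2 fold changes of -0.09 in MIA and -0.17 in control offspring, not called in either.

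Ndufa4, named as a complex I subunit and since assigned to complex IV, had the highest level per transcript length among the Nduf genes. It had 47.8, 32.4, 51.0, 46.6 and 40.9 CPM in control LPS libraries, against 15.8 to 30.2 CPM (median 23.3) in control saline libraries, with a log2 fold change of 0.90 ± 0.15 (SE, edgeR adjusted p = 2.5e-05). MIA offspring had 41.8, 45.4 and 47.6 CPM in MIA LPS libraries, against 19.8, 32.1, 23.1, 25.9 and 24.98 CPM in MIA saline libraries, with a log2 fold change of 0.84 ± 0.18 (SE, edgeR adjusted p = 0.00056). The groups did not overlap in either maternal group. Its paralogue AA467197 (NMES1, also C15orf48 in human), no member by its symbol and known to take the place of NDUFA4 in complex IV of inflamed cells, had 8.88, 34.2, 3.22, 20.7 and 22.3 CPM in control LPS libraries, against a single count in 1 of the 6 control saline libraries. The ratio for AA467197 was 1686, with a 95% counting interval of 303 to 66601. In MIA offspring AA467197 had 9.55, 33.0 and 21.2 CPM in LPS libraries and no count in any saline library, at least 495-fold higher when 3 counts are taken as the floor of the whole saline group. Intervals and floors cover counting error only. AA467197 entered the fit through the LPS libraries where it is high, so its values are a description, with no test. Another paralogue, Ndufa4l2, had a summed count of 3 over all libraries and was under the minimum.

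Complex II (succinate dehydrogenase), which also serves in the citric acid cycle, had 2 of its 4 subunits higher in each maternal group. Sdhd, a membrane anchor, had 52.1, 47.3, 51.5, 61.9 and 38.9 CPM in control LPS libraries, against 25.8 to 40.7 CPM (median 30.6) in control saline libraries, with a log2 fold change of 0.69 ± 0.14 (SE, edgeR adjusted p = 0.00028). MIA offspring had 56.2, 51.9 and 59.4 CPM in MIA LPS libraries, against 31.9, 37.1, 21.7, 33.5 and 25.6 CPM in MIA saline libraries, with a log2 fold change of 0.90 ± 0.17 (SE, edgeR adjusted p = 0.00013), and there the groups did not overlap. Sdha, the flavin-carrying catalytic subunit, had 49.4, 39.5, 42.2, 47.9 and 38.0 CPM in control LPS libraries, against 38.9 to 54.5 CPM (median 46.0) in control saline libraries, and no change was called, at a log2 fold change of -0.10 ± 0.13 (SE, edgeR adjusted p = 0.54). In MIA offspring it stood at a log2 fold change of 0.10, also not called. The LPS and saline libraries of Sdha overlapped in both maternal groups. Sdhb, the iron-sulfur subunit, was not called in MIA offspring (0.39 ± 0.16 (SE, edgeR adjusted p = 0.055)) and rose in control offspring (0.52 ± 0.13 (SE, edgeR adjusted p = 0.0027)). Sdhc, the other anchor, rose in MIA offspring (0.81 ± 0.25 (SE, edgeR adjusted p = 0.011)) and was not called in control offspring (0.27 ± 0.21 (SE, edgeR adjusted p = 0.31)). Without MIA LPS replicate 3 the MIA call of Sdhc was lost (0.64). In MIA offspring Sdhb was called under limma-voom (0.50) and when any of 5 libraries was left out, at 0.40 to 0.53. The difference between maternal groups was not called for Sdhb, Sdhc or Sdha.

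In complex III and cytochrome c nearly every nuclear gene rose, with 9 of 10 nuclear members higher in each maternal group and medians of 0.79 in MIA and 0.76 in control offspring. Cycs, which encodes cytochrome c, the carrier between complexes III and IV and a trigger of apoptosis when released, had 38.2, 29.0, 38.3, 39.5 and 23.7 CPM in control LPS libraries, against 9.97 to 23.5 CPM (median 14.2) in control saline libraries, with a log2 fold change of 1.19 ± 0.19 (SE, edgeR adjusted p = 1e-05). Cycs in MIA offspring was at 23.4, 31.2 and 39.0 CPM in MIA LPS libraries, against 21.4, 19.2, 13.9, 15.1 and 18.3 CPM in MIA saline libraries, with a log2 fold change of 0.83 ± 0.22 (SE, edgeR adjusted p = 0.0038). All LPS libraries lay above all saline libraries in both maternal groups. Its reductant Cyc1, the haem-bearing subunit of complex III, rose by 0.87 in MIA and 1.06 in control offspring on the log2 scale. Uqcrq, a small subunit that binds near cytochrome b, rose by 1.33 in MIA and 1.12 in control offspring. Uqcrc2, with the second lowest fold change in control offspring, rose by 0.56 in MIA and 0.39 in control offspring. Its control call was lost under RLE scaling (0.31), upper quartile scaling (0.30), the ID number block (0.31) and with no filter on low counts (0.38). It was also lost without control LPS replicate 1 (0.35) or control saline replicate 3 (0.32). The member not called was Uqcrh, the hinge subunit that contacts cytochrome c, at log2 fold changes of 0.05 in MIA and 0.18 in control offspring, and the MIA value is below 0 under other scalings.

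Complex IV, which reduces oxygen, had 10 of 12 nuclear names higher in MIA offspring and 11 in control offspring, Cox6a2 among them, and 1 lower in each. Without Cox6a2, 9 of 11 were higher in MIA and 10 of 11 in control offspring. Cox4i1, the regulatory subunit with the highest level per length in the complex, had 180.1, 135, 197, 191 and 177 CPM in control LPS libraries, against 87.8 to 143 CPM (median 103) in control saline libraries, with a log2 fold change of 0.70 ± 0.14 (SE, edgeR adjusted p = 0.00013). Cox4i1 in MIA offspring was at 198, 168 and 206 CPM in MIA LPS libraries, against 106, 136, 95.8, 136 and 119 CPM in MIA saline libraries, with a log2 fold change of 0.69 ± 0.16 (SE, edgeR adjusted p = 0.0013). Control LPS replicate 2 of Cox4i1 lay below the highest control saline library, and in MIA offspring the groups did not overlap. Cox5b, a nuclear subunit that binds zinc, rose by 0.87 in MIA and 1.09 in control offspring on the log2 scale.

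Several complex IV subunits come as tissue isoforms. Cox6a2, the heart and skeletal muscle isoform of subunit VIa, was near the count minimum with a summed count of 252, and had 1.46, 0.902, 3.32, 1.68 and 0.881 CPM in control LPS libraries, against 0.155 to 0.764 CPM (median 0.241) in control saline libraries. In MIA offspring the level was 1.78, 1.45 and 1.39 CPM in MIA LPS libraries, against 1.14, 0.161, 0.270, 0.206 and 0.0666 CPM in MIA saline libraries. Cox6a2 reached the filter's cutoff of 0.733 CPM in 9 of 9 LPS libraries and in 2 of 11 saline libraries, so it entered the fit through the libraries where it is high. Its log2 fold changes of 2.09 in MIA and 2.35 in control offspring are therefore a description, with no test. The LPS and saline groups did not overlap in either maternal group, though control saline replicate 3 and MIA saline replicate 1 stood far above the other saline libraries. Cox6a1, the isoform of most tissues, had 55.6, 34.8, 72.7, 56.6 and 56.7 CPM in control LPS libraries, against 24.4 to 61.4 CPM (median 33.3) in control saline libraries, with a log2 fold change of 0.53 ± 0.20 (SE, edgeR adjusted p = 0.03), and the groups overlapped. In MIA offspring Cox6a1 had a log2 fold change of 0.47 ± 0.23 (SE, edgeR adjusted p = 0.12) and was not called. The control call of Cox6a1 was lost when any of 7 libraries was left out, with log2 fold changes of 0.39 to 0.52, and also under RLE scaling (0.46), under upper quartile scaling (0.45) and with no filter on low counts (0.53).

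Other isoform names were under the minimum. Cox6b2, the testis isoform beside Cox6b1, had a summed count of 58, Cox4i2, the lung and hypoxia isoform beside Cox4i1, had 10, the muscle isoform Cox7a1 had 3, and the testis isoform Cox7b2 had 0. Just over the minimum stood Cox6a2 with 252, Ndufaf5 with 357 and mt-Nd4l with 410 counts. The widespread forms Cox6b1, Cox7a2 and Cox7b rose in MIA offspring, by 0.79, 0.77 and 0.92, and in control offspring, by 0.70, 0.64 and 0.92, on the log2 scale. The MIA call of Cox7a2 was lost without MIA LPS replicate 3, at 0.65.

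Cox7a2l fell in both maternal groups. It is related to subunit VIIa and is known as a factor that ties complex III to complex IV in supercomplexes. Its level was 44.2, 43.8, 41.2, 39.2 and 47.5 CPM in control LPS libraries, against 51.4 to 77.5 CPM (median 64.9) in control saline libraries, with a log2 fold change of -0.56 ± 0.13 (SE, edgeR adjusted p = 0.0013). In MIA offspring it was 52.8, 46.0 and 39.4 CPM in MIA LPS libraries, against 65.4, 89.7, 56.4, 69.3 and 56.2 CPM in MIA saline libraries, with a log2 fold change of -0.55 ± 0.16 (SE, edgeR adjusted p = 0.0091). Every LPS library lay below every saline library in both maternal groups, where 18.0% of all genes did so in MIA offspring and 13.9% in control offspring. The MIA call was lost without MIA LPS replicate 3, at a log2 fold change of -0.45.

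**Figure D3:**
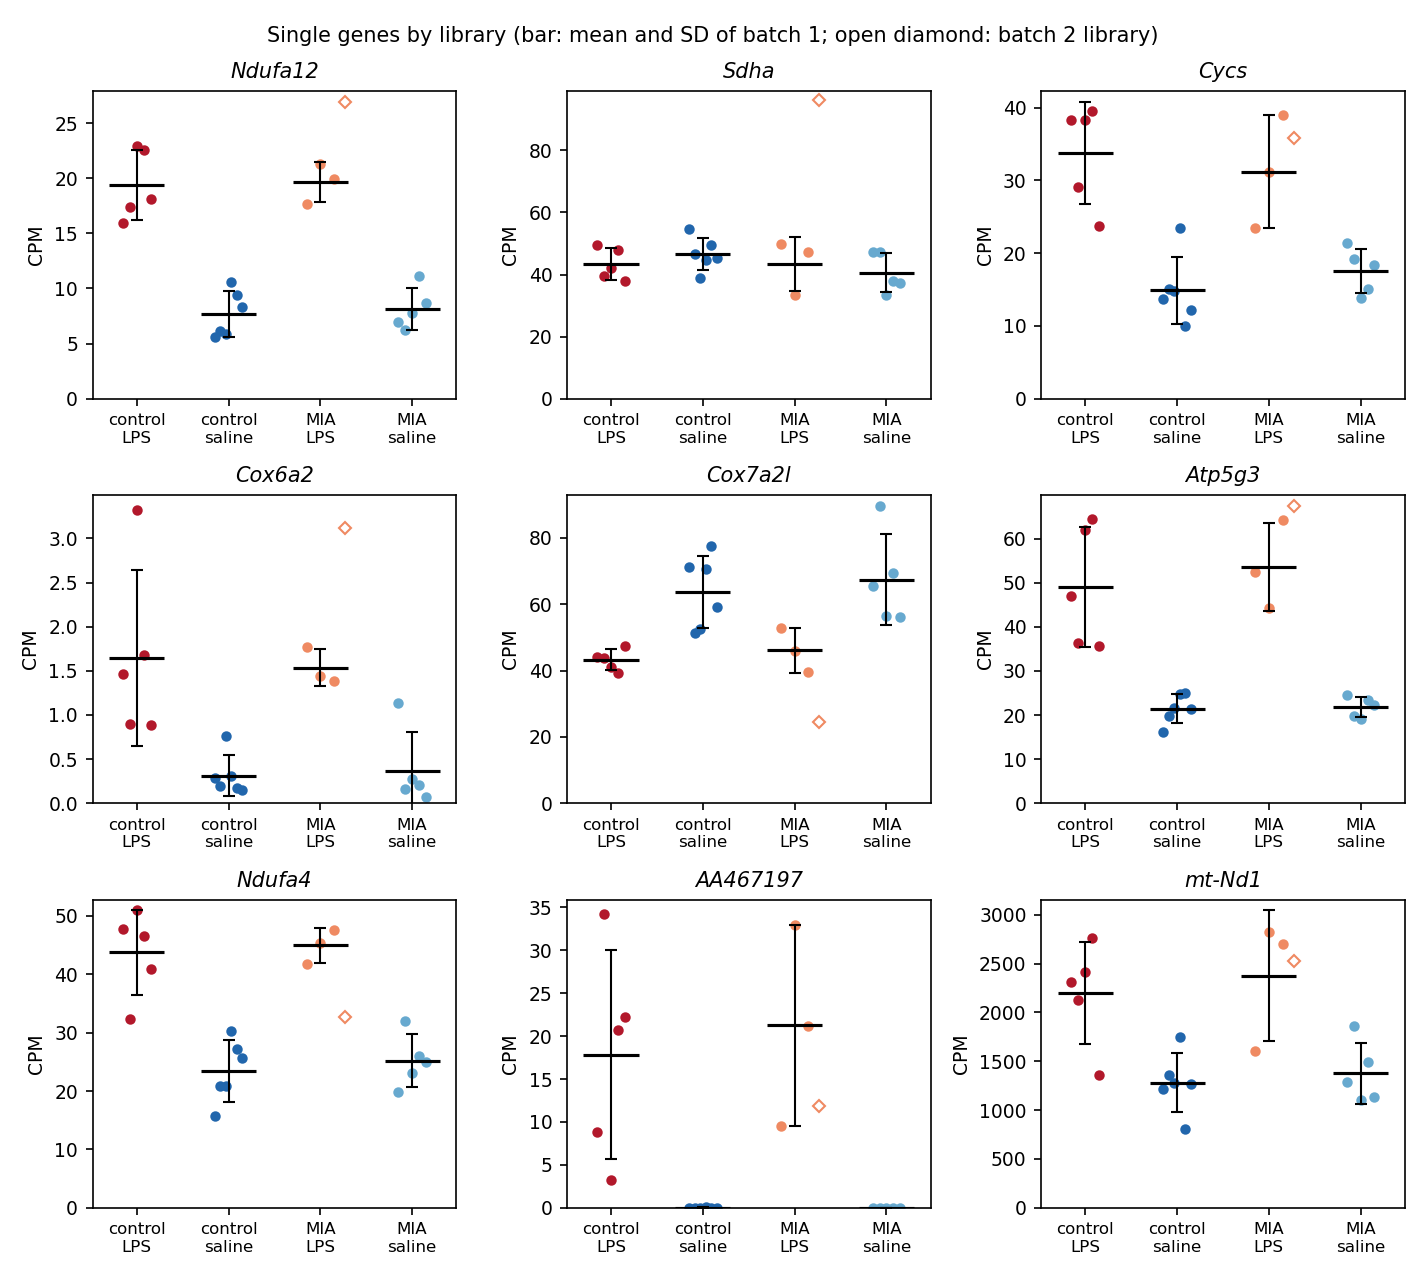
CPM per library of 8 members and of AA467197, with points for batch 1 libraries, bars for mean and SD, and an open diamond for the batch 2 library. Ndufa12, Cycs, Cox6a2, Atp5g3 and Ndufa4 sit higher after LPS with no overlap, Cox7a2l sits lower, Sdha overlaps between groups, AA467197 is near 0 in all saline libraries, and mt-Nd1 is higher after LPS with overlapping libraries.

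ATP synthase had 17 nuclear members, of which 11 rose and 1 fell in MIA offspring (median log2 fold change 0.78), and 13 rose and none fell in control offspring (median 0.67). The c-ring, the proton-driven rotor, is encoded by 3 genes whose mature proteins are alike and whose import signals differ. Atp5g3 had 47.1, 36.4, 61.9, 64.4 and 35.7 CPM in control LPS libraries, against 16.3 to 25.1 CPM (median 21.5) in control saline libraries, with a log2 fold change of 1.19 ± 0.16 (SE, edgeR adjusted p = 5.7e-07). Atp5g3 in MIA offspring was at 52.4, 44.3 and 64.2 CPM in MIA LPS libraries, against 24.5, 19.8, 19.2, 23.3 and 22.2 CPM in MIA saline libraries, with a log2 fold change of 1.30 ± 0.18 (SE, edgeR adjusted p = 2.7e-06), and the groups did not overlap in either maternal group. Atp5g1 rose by 1.47 in MIA and 1.19 in control offspring on the log2 scale, and its libraries did not overlap either. Atp5g2 was not called in MIA offspring (0.47 ± 0.21 (SE, edgeR adjusted p = 0.084)) and rose in control offspring (0.56 ± 0.18 (SE, edgeR adjusted p = 0.012)). A copy of Atp5g2 with identical sequence, Gm10175, took 38.1% of the counts of the pair, and with that copy added Atp5g2 was called in MIA offspring at a log2 fold change of 0.64. It was also called there under limma-voom (0.52) and without control saline replicate 1 (0.47) or 5 (0.47), and its control call was lost without control LPS replicate 5 (0.44).

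Of the catalytic head and central stalk 4 of 5 members rose in each maternal group, and of the peripheral stalk 3 of 4 in MIA and 4 of 4 in control offspring. Atp5c1, the central stalk subunit with the highest level per length among nuclear ATP synthase members, was not called, at log2 fold changes of 0.24 in MIA and 0.23 in control offspring. Without control LPS replicate 5 Atp5c1 was called in control offspring, at 0.32. Atp5s, coupling factor B, had 4.88, 3.25, 3.53, 3.28 and 4.57 CPM in control LPS libraries, against 3.94 to 7.23 CPM (median 5.54) in control saline libraries, at a log2 fold change of -0.50 ± 0.24 (SE, edgeR adjusted p = 0.099), and was not called, though DESeq2 called it (-0.58). In MIA offspring it had 2.11, 1.66 and 2.11 CPM in MIA LPS libraries, against 2.80, 4.58, 6.01, 4.06 and 7.26 CPM in MIA saline libraries and fell, at a log2 fold change of -1.33 ± 0.32 (SE, edgeR adjusted p = 0.0015). MIA LPS and MIA saline libraries of Atp5s did not overlap. The difference between the maternal groups in the log2 response of Atp5s was -0.83 ± 0.40 (SE, edgeR adjusted p = 1), and so was not called, at an unadjusted p of 0.046.

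Assembly factors, which build complexes I and II without staying in them, were counted apart, and their shares called higher did not stand above those over all genes. Of 12, 1 rose and 3 fell in MIA offspring (median log2 fold change -0.0041), and 2 rose and 2 fell in control offspring (median 0.18). Ndufaf4, a complex I assembly factor, had 14.8, 18.0, 20.7, 20.6 and 14.7 CPM in control LPS libraries, against 6.39 to 11.1 CPM (median 8.85) in control saline libraries, with a log2 fold change of 1.01 ± 0.17 (SE, edgeR adjusted p = 2.4e-05). In MIA offspring the level was 10.7, 16.3 and 21.0 CPM in MIA LPS libraries, against 8.94, 9.16, 7.70, 9.15 and 9.39 CPM in MIA saline libraries, with a log2 fold change of 0.85 ± 0.20 (SE, edgeR adjusted p = 0.0014). LPS and saline libraries of Ndufaf4 did not overlap in either maternal group. Sdhaf4, which aids the maturation of SDHA, had 4.60, 2.53, 4.88, 5.16 and 6.01 CPM in control LPS libraries, against 5.21 to 10.3 CPM (median 7.65) in control saline libraries, and fell, at a log2 fold change of -0.73 ± 0.23 (SE, edgeR adjusted p = 0.011). In MIA offspring it had 5.75, 3.33 and 4.69 CPM in MIA LPS libraries, against 7.98, 9.16, 5.94, 7.78 and 8.59 CPM in MIA saline libraries, with a log2 fold change of -0.78 ± 0.28 (SE, edgeR adjusted p = 0.027), a call lost under limma-voom (-0.66) and without MIA saline replicate 2 (-0.73), MIA LPS replicate 2 (-0.60) or MIA LPS replicate 3 (-0.80). The groups overlapped in control and not in MIA offspring. Sdhaf1, which helps insert iron-sulfur clusters into SDHB, rose in control offspring (0.83 ± 0.31 (SE, edgeR adjusted p = 0.03)) and lost its call without control LPS replicate 2 or 5 or control saline replicate 1 or 3, at 0.65 to 0.79. Ndufaf2, a relative of Ndufa12, had log2 fold changes of -0.35 in MIA and -0.55 in control offspring and was not called. The other members that fell, named here from their calls, were Ndufaf7, a methyltransferase that acts on a complex I core subunit, in both maternal groups (-0.66 in MIA and -0.41 in control offspring) and Sdhaf3, a maturation factor of SDHB, in MIA offspring (-0.82).

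The mtDNA-encoded genes, transcribed as long precursors from both strands, are the hydrophobic core subunits. After LPS 2 of 13 rose in MIA offspring (median log2 fold change 0.37) and 6 of 13 in control offspring (median 0.58), and none fell. These are 15.4% in MIA offspring, where 20.8% of all genes were called higher, and 46.2% in control offspring, where 23.3% were, so the MIA count does not stand above the share over all genes. The median of the mtDNA-encoded members thus stood beside a nuclear median of 0.53 in MIA and 0.56 in control offspring. Both mtDNA-encoded medians include mt-Nd4l, which passed the filter only through LPS libraries and was not among the genes called. Without mt-Nd4l the control median would lie between 0.42 (mt-Cytb) and 0.58 (mt-Co3). The MIA median would lie between 0.36 (mt-Nd2) and 0.37 (mt-Nd5). The within-group SD between libraries of mean log2 CPM, mtDNA-encoded minus nuclear, was 0.324. That SD describes levels in single libraries, so it does not measure the error of the gap between these medians. The gap in MIA offspring, mtDNA-encoded minus nuclear, was -0.17, but -0.33 under limma-voom, -0.39 without MIA LPS replicate 2 and 0.10 without MIA LPS replicate 1. The count called in control offspring was 3 without control saline replicate 1 or 3. In MIA offspring it was 5 without MIA LPS replicate 1, 4 without MIA saline replicate 2, control saline replicate 5 or control LPS replicate 5, and 1 without MIA LPS replicate 2 or 3.

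Summed over the 13 genes, the level was 9528 ± 2127 CPM in control LPS libraries (SD, n = 5) and 6715 ± 1388 CPM in control saline libraries (SD, n = 6), a ratio of 1.42. It was 10996 ± 3098 CPM in MIA LPS libraries (SD, n = 3) and 7828 ± 1432 CPM in MIA saline libraries (SD, n = 5), a ratio of 1.40. The groups overlapped in both, and no single mtDNA-encoded gene had all LPS libraries beyond all saline libraries. The mtDNA-encoded sum over the nuclear sum was 3.38 in control LPS and 3.52 in control saline libraries on average, and 3.76 in MIA LPS and 3.87 in MIA saline libraries. Control LPS replicate 5 (2.32), control saline replicate 5 (1.96) and MIA LPS replicate 1 (2.46) had the lowest ratios of all batch 1 libraries, and MIA LPS replicate 2 (5.08) the highest. The mitochondrial ribosomal RNAs, which are no members, summed to 40695 CPM in control LPS and 31689 CPM in control saline libraries, and to 48585 CPM in MIA LPS and 36654 CPM in MIA saline libraries, with neither of the 2 genes called.

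Mt-Nd1, a membrane subunit of complex I named here from its call, had 2316, 2129, 2417, 2767 and 1364 CPM in control LPS libraries, against 809.9 to 1754 CPM (median 1272) in control saline libraries, with a log2 fold change of 0.78 ± 0.19 (SE, edgeR adjusted p = 0.0019). In MIA offspring the level was 1605, 2821 and 2701 CPM in MIA LPS libraries, against 1289, 1865, 1102, 1491 and 1136 CPM in MIA saline libraries, with a log2 fold change of 0.79 ± 0.23 (SE, edgeR adjusted p = 0.0082). Single libraries overlapped in both maternal groups, with control LPS replicate 5 and MIA LPS replicate 1 lowest after LPS. Mt-Atp6, the proton channel subunit of ATP synthase and the mtDNA-encoded gene with the highest level per length, was not called in MIA offspring (0.59 ± 0.25 (SE, edgeR adjusted p = 0.065)) and rose in control offspring (0.68 ± 0.21 (SE, edgeR adjusted p = 0.0095)), and its MIA value was called with copies added (0.63) and when any of 4 libraries was left out, at 0.59 to 0.80. Mt-Co2, the subunit of complex IV that receives electrons from cytochrome c, rose in both (0.61 in MIA and 0.62 in control offspring). The members mt-Cytb, mt-Co3 and mt-Atp8 were not called in MIA offspring and rose in control offspring, at control log2 fold changes of 0.42, 0.58 and 0.74. Lowest among the fold changes in control offspring were mt-Nd5 (0.22) and mt-Nd4 (0.24), both proton-pumping subunits of complex I and neither called.

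Reads of several mtDNA-encoded genes can be shared with near-identical nuclear copies of mtDNA. At an identity of at least 95% over at least 80% of the copy, 19 members had a counted copy and for 8 the copies held over 10% of the combined counts. For mt-Nd4l the copy Gm10222 took 97.6%, for mt-Co3 the copy Gm28437 took 63.8% and for mt-Nd3 the copy Gm28438 took 63.7%. Mt-Nd4l had 2.87, 0.00, 0.00, 2.55 and 2.32 CPM in control LPS libraries, against 0.00 CPM in 4 of the 6 control saline libraries, and 1.52, 8.03 and 2.84 CPM in MIA LPS libraries, against 0.00, 0.00, 0.00, 1.72 and 0.00 CPM in MIA saline libraries. Mt-Nd4l reached the filter's cutoff in 6 of 9 LPS libraries and in 3 of 11 saline libraries, so its log2 fold changes of 3.51 in MIA and 1.42 in control offspring are also a description, with no test. With the copies added, the fold changes were 0.11 in MIA and 0.33 in control offspring for mt-Nd4l. For mt-Nd3 they were 0.35 in MIA and 0.41 in control offspring, against -0.01 in MIA and 1.03 in control offspring as deposited. The mtDNA-encoded median was then 0.41 in control offspring. With the copies added 3 were called in MIA and 6 in control offspring. How the authors' counting shared such reads is not given in the sources used here.

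Per kilobase of transcript, the median of the mtDNA-encoded genes stood far above that of the nuclear ones at rest, though the ranges overlapped. In control saline libraries their median level was 498 CPM per kb, with a range of 1.91 (mt-Nd4l) to 1348, against a nuclear median of 18.3 CPM per kb with a range of 0.462 (Cox6a2) to 143 (Cox4i1). Among nuclear groups the medians in control saline libraries were 48.3 CPM per kb for complex IV, 29.8 for ATP synthase, 23.6 for complex III with cytochrome c, 20.7 for complex II, 18.1 for complex I and 3.61 for the assembly factors. Across the 92 nuclear members the fold change in control offspring had a Spearman correlation of 0.216 with level per kb and of -0.195 with transcript length, weak relations across genes that share libraries.

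**Figure D4:**
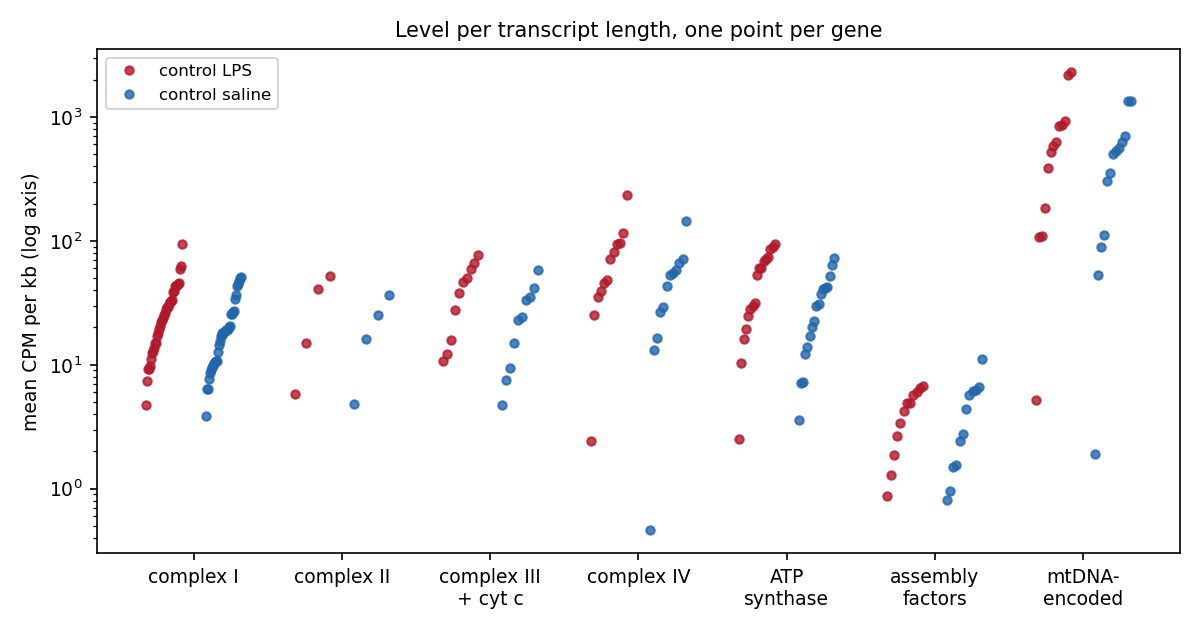
Mean CPM per kb of transcript (log axis) of each member in control LPS libraries (left of each pair) and control saline libraries (right), by complex. The mtDNA-encoded genes include the highest levels, with a median of 498 CPM per kb in control saline libraries. Their range, from 1.91 (mt-Nd4l) to 1348, overlaps that of the nuclear members, and assembly factors are the lowest nuclear group at a median of 3.61.

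Between MIA and control offspring no member was called, after LPS, after saline or in the difference of LPS responses. Over all genes edgeR called 0.0% in each of these 3 comparisons, with 825, 415 and 491 genes at an unadjusted p under 0.05. Among the 105 members 2, 4 and 1 were at such a p. DESeq2 called 6 genes after saline, none of them a member, and none after LPS or in the difference. Limma-voom called no gene in any of the 3. After LPS the nuclear median was 0.04 and the mtDNA-encoded median 0.22. After saline the medians were 0.07 and 0.29, and the difference of responses had medians of 0.0065 and -0.0066. The median standard error of a nuclear member was 0.21 after LPS, 0.17 after saline and 0.27 for the difference, which sets the size of change these libraries could show.

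All 13 mtDNA-encoded genes had a positive MIA minus control value after LPS and 12 of 13 after saline, as values from shared transcripts and shared libraries and not as separate results. The median after LPS was 0.43 without MIA LPS replicate 1 and 0.04 without MIA LPS replicate 2, and after saline it ran from 0.14 to 0.40 over the libraries left out. Mt-Co2 was the member with the lowest p after saline (0.43 ± 0.16 (SE, edgeR adjusted p = 1)), and Atp5s after LPS (-0.99 ± 0.32 (SE, edgeR adjusted p = 0.67)). Sdhc, with 0.45 after LPS and -0.09 after saline, was not called either.

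Other genes of the pathway were counted from lists chosen with earlier results known. Over all genes tested 20.8% rose and 18.3% fell in MIA offspring, and 23.3% rose and 21.3% fell in control offspring, and a list whose share is near these is no result about the list. Of 24 genes of the citric acid cycle and pyruvate dehydrogenase 10 rose and 3 fell in MIA offspring and 12 rose and 3 fell in control offspring. The log2 fold change of LPS over saline was 1.58 in MIA and 1.34 in control offspring for Idh3a, a subunit of the NAD-dependent isocitrate dehydrogenase, and -1.62 in MIA and -1.80 in control offspring for Pdk1, a kinase that inhibits pyruvate dehydrogenase. Of 7 adenine nucleotide, phosphate and proton carriers 5 rose in MIA and 6 in control offspring and none fell, among them the ATP/ADP carrier Slc25a5 at log2 fold changes of 0.78 in MIA and 0.83 in control offspring. Of 16 genes that feed electrons by other routes or make ubiquinone 5 rose and none fell in MIA offspring and 6 rose and 1 fell in control offspring. Pdss1, which builds the ubiquinone tail, rose by 2.41 in MIA and 2.21 in control offspring on the log2 scale, and Gpd2, the mitochondrial glycerol-3-phosphate dehydrogenase, by 1.76 in MIA and 1.82 in control offspring.

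Genes that build or read the mitochondrial machinery were mixed. Of 41 mitochondrial ribosomal proteins 23 rose in MIA offspring (median log2 fold change 0.51) and 18 in control offspring (median 0.44), and none fell. Of 22 complex IV assembly genes 4 rose in each maternal group and none fell, among them Sco2, a copper chaperone, at log2 fold changes of 1.93 in MIA and 1.73 in control offspring. Of 10 complex I assembly genes outside the Nduf names 1 rose and 1 fell in MIA offspring, and 2 rose and 2 fell in control offspring. The shares of complex IV and complex I assembly genes that rose lay at or under those over all genes, and those of mitochondrial transcription and RNA handling genes lay near them. None of 6 complex III and none of 4 ATP synthase assembly genes was called by edgeR. Of 24 genes of mitochondrial transcription and RNA handling 6 rose and 2 fell in MIA offspring and 7 rose and 3 fell in control offspring.

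Of 13 nuclear regulators of respiratory genes that passed the filter, 4 rose and 3 fell in MIA offspring and 5 rose and 4 fell in control offspring. Ppargc1b, a coactivator of mitochondrial biogenesis, had 4.01, 5.35, 3.95, 3.89 and 5.05 CPM in control LPS libraries, against 0.621 to 1.47 CPM in control saline libraries, with a log2 fold change of 2.26. In MIA offspring Ppargc1b had 3.97, 8.10 and 4.49 CPM in LPS libraries, against 0.438, 0.723, 0.945, 1.79 and 0.933 CPM in saline libraries, with a log2 fold change of 2.49. The groups of Ppargc1b did not overlap in either maternal group. Gabpa, the DNA-binding subunit of the factor whose motif was searched above, fell by 0.53 in MIA and 0.44 in control offspring on the log2 scale, and Nrf1 had log2 fold changes of 0.15 in MIA and 0.04 in control offspring and was not called.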

How the data were processed

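Libraries came from 5 ng of RNA by a modified Smart-Seq2 protocol with 9 PCR cycles, per the labels' protocols. Reverse transcription was primed at poly(A) tails, so transcripts with short or no tails may be undercounted, and the protocol mentions no molecular identifiers. The authors deposited unnormalized estimated counts of 55487 genes for 21 libraries. The submitters' processing notes name RSEM, STAR and DESeq2. Genome build, annotation and strand setting were not given in the sources used here. Among the values 6.27% were not whole, and all were rounded. Symbols came from GENCODE M21 (55227 identifiers matched without version, 260 unmatched).

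Comparisons used the quasi-likelihood test of edgeR (version 4.0.16, R 4.3.3, robust, TMM) with 1 mean for each of the 4 groups and a batch term, on 20 libraries with 15 residual degrees of freedom, and p-values were adjusted by Benjamini-Hochberg over the 14741 genes past the expression filter (minimum count 10, minimum total 15). The standard error (SE) is the absolute log2 fold change over the square root of F. CPM values are TMM-scaled, and levels per kb use GENCODE transcript lengths. The biological coefficient of variation was 0.252. Two-sided tests were used throughout, and the code was tested on simulated data.

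The members, lists and comparisons were chosen with earlier results of these data known. Members named with values were, per complex, the highest and lowest fold changes of LPS in control offspring (and the second of each), the highest level per length and the tissue isoform sets. Others were named from their calls after values were seen. Alternatives were DESeq2 1.42.0, limma-voom (limma 3.58.1), other scalings and filters, blocks by number, libraries left out or kept in, and, chosen after seeing the data, near-identical nuclear copies added to their member.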

Additional observations from a re-analysis of the deposited data

Results flagged for a closer look

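In 4 of 111 groups of 4 to 10 libraries 1 library stood apart from the others by more than Dixon's 95% critical value, a share near the 5% that chance gives. Mt-Nd4l was at 1.72 CPM in MIA saline replicate 4, where the other MIA saline libraries were at 0.00 CPM. Ndufaf4 was at 7.70 CPM in MIA saline replicate 3, against 8.94 to 9.39 CPM in the others. Cox6a2 was at 0.764 CPM in control saline replicate 3, against 0.155 to 0.307 CPM in the other control saline libraries. Cox6a2 was also at 1.14 CPM in MIA saline replicate 1, against 0.0666 to 0.270 CPM in the others.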

How the results depend on the processing

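Nuclear members called higher after LPS numbered 45 to 56 in MIA and 51 to 58 in control offspring over the other settings, and 38 to 52 in MIA and 50 to 62 in control offspring with single libraries left out. Nuclear members called lower in MIA offspring were 5, but 3 under limma-voom, 3 with the replicate block and 2 to 5 with single libraries left out. Members encoded by mtDNA and called higher in MIA offspring were 2, with 1 to 5 when single libraries were left out, and in control offspring 6, but 3 with the ID number block and 3 to 7 with single libraries left out. The cause of these shifts was not tested. Removing the summed count minimum changed no value, since no further match passed the expression filter.

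The replicate block gave 56 nuclear and 3 mtDNA-encoded members higher in MIA offspring, and 58 and 7 in control offspring. The main fit did not pair samples by title number. Of 24 same-numbered pairs 5 had a correlation over 0.1 (-0.136 to 0.222, median 0.0303). Among pairs with other numbers 10 of 109 did (-0.212 to 0.205, median -0.00858). Correlations this small cannot tell whether title numbers mark pairs. The ID number block, for 10 pairs with a shared second number, gave 51 nuclear members higher in MIA and 55 in control offspring. That block allows no comparison of MIA with control offspring after saline or after LPS, since no number spans both. In MIA offspring the replicate block called Cox6a1 (0.616), Atp5g2 (0.624) and mt-Atp6 (0.523) and did not call Sdhaf4 (-0.632), and the ID number block called Atp5g2 (0.487). In control offspring the ID number block did not call Sdhaf1 (0.958) or Uqcrc2 (0.308).

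Some log2 fold changes of LPS over saline changed sign in MIA offspring, none of them called as reported. Mt-Nd3 was at 0.113 with the library titled excluded kept in, 0.350 with copies added and -0.459 to 0.409 with libraries left out. Ndufa9 was at 0.0518 under limma-voom, and Uqcrh at -0.0171 under RLE scaling, -0.0398 under upper quartile scaling and -0.017 under DESeq2. With libraries left out the ranges were -0.000874 to 0.494 (mt-Nd4), -0.898 to 0.0694 (Ndufaf2), -0.273 to 0.00511 (Ndufa6), -0.203 to 0.101 (Ndufa9), -0.0115 to 0.259 (Sdha) and -0.0147 to 0.134 (Uqcrh). In MIA offspring 3 LPS libraries limit the precision.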

Other observations

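MIA LPS replicate 4, the batch 2 library, enters no fold change. Its nuclear members summed to 4031 CPM, above every batch 1 library, and its mtDNA-encoded members to 11868 CPM, within the range of the batch 1 MIA LPS libraries, with a ratio of 2.94. Sdha stood at 96.2 CPM and Cyc1 at 64.7 CPM, both above all batch 1 libraries, and Cox7a2l at 24.5 CPM, below all of them.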
